A study of Mus musculus with 586 samples.

Results

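The genes described here encode collagens, laminins and the other principal proteins of basement membranes. They were taken as the symbols, present in all 18 deposited tables, of the forms Col followed by a number, the letter a and a number, or Lama, Lamb or Lamc followed by a digit, together with Fn1, Sparc, Nid1, Nid2, Hspg2 and Agrn. This gave 61 of 23361 genes, namely 44 collagen chains, 11 laminin chains and 6 others. The choice used gene symbols alone and no measured value.

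A basement membrane is a thin sheet of extracellular matrix that lies under epithelia and around the early germ layers. Laminin trimers of 1 alpha, 1 beta and 1 gamma chain form its first network, a second network is built of type IV collagen, and nidogens and the heparan sulphate proteoglycans perlecan (Hspg2) and agrin (Agrn) link them. In the gastrulating mouse embryo such a membrane separates the epiblast from the visceral endoderm, and it is breached at the primitive streak, where mesoderm leaves the epiblast. Fibronectin (Fn1) is the matrix protein on which mesoderm cells migrate, and Sparc is a collagen-binding glycoprotein that is abundant in parietal endoderm.

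The libraries came from C57BL/6 mouse embryos that carried no stated allele or treatment. They were embedded in OCT, cryosectioned, and cut by laser into small regions of each section, whose RNA was amplified and sequenced (Geo-seq). Labels name the stages pre-gastrulation (E5.5 and E6.0), early (E6.5), mid (E7.0) and late (E7.5) gastrulation, and give no sex. Region codes carry no legend in the labels and are given their atlas meaning here. EA and EP are anterior and posterior endoderm, VE is visceral endoderm, M, MA and MP are mesoderm, anterior mesoderm and posterior mesoderm, and P and A are posterior and anterior epiblast. Section 1 is the distal tip of the embryo and higher numbers lie closer to the extraembryonic tissue. The analysis covered 473 libraries from 18 embryos, that is 22 libraries of 2 embryos at E5.5, 22 of 2 at E6.0, 109 of 6 at E6.5, 101 of 2 at E7.0 and 219 of 6 at E7.5. The table used for embryo 6 of E6.5 is headed E6.0. It was assigned to that embryo by its embryo code and its section and region codes. The stage of this embryo rests on that match. It is 1 of the 2 embryos of E6.5 with EA and EP, and enters every change between E6.5 and E7.5. Each comparison of regions sets regions of 1 section against each other. Slopes follow a region from distal to proximal over at least 4 sections, and both count embryos as replicates.

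The values are FPKM (fragments per kilobase of transcript, scaled to the mapped fragments of the library) as deposited. The sum of FPKM per library ran from 53064 to 1806706 (median 416861), and 2683 to 11319 genes (median 8949) reached 1 FPKM. FPKM do not state depth; the smallest values that 1 fragment gives in 8510 genes with a single transcript put the median library of each embryo at roughly 2200000 to 11000000 fragments. Each embryo has a table of its own that was normalized separately, so levels are set side by side across stages with no test. In these pooled cells, fewer cells of a type and less RNA per cell cannot be told apart.

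A few libraries stood apart from those with the same code. At the distal tip (section 1) of E6.5 embryo 1, Col4a1 was at 340.0 FPKM and Sparc at 1645 FPKM, against 1.93 to 5.01 FPKM of Col4a1 in the tips of the other 5 embryos of that stage. The same library held 37.6 FPKM of Thbd, 781 FPKM of Srgn and 264 FPKM of Pth1r, which are known from parietal endoderm, and 1228 FPKM of Prl3d1, a trophoblast giant cell gene. Both E5.5 tips likewise held much Srgn (428 and 587 FPKM) beside Col4a1 at 27.2 and 43.5 FPKM. The P library of section 5 in E6.0 embryo 1 held 74.5 FPKM of Col1a1, 190 FPKM of Col1a2 and 235 FPKM of Col3a1, fibrillar collagens of connective tissue, beside 461 FPKM of Dcn, 1083 FPKM of Hba-a1 and only 2.03 FPKM of the epiblast gene Pou5f1. The E5.5, E6.0 and E6.5 tips, which carry a single code for both sides, entered no comparison of P with A, and results with and without the E6.0 library are given where they differ.

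Lamb1, Nid1 and Agrn are shown by their promoters because Lamb1 and Nid1 were higher in distal endoderm and Agrn in proximal endoderm. The stretches below lie just upstream of the annotated exons (RefSeq promoter table, GRCm38.p6, 44 of the 61 members matched) and are written 5′ to 3′ along the gene. Capitals mark GGGCGG (a GC box) or CCAAT on either strand, so that CCGCCC and ATTGG are marked as well, and overlapping matches run together.
Lamb1, chr12:31265043-31265233, plus strand: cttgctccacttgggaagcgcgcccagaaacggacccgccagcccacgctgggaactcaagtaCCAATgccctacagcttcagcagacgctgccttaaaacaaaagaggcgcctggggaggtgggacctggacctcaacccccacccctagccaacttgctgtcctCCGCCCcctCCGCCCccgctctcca
Nid1, chr13:13437352-13437550, plus strand: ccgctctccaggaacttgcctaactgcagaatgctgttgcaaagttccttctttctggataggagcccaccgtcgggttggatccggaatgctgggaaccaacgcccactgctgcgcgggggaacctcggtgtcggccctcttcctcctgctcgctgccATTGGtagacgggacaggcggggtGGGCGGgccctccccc
Agrn, chr4:156197489-156197738, minus strand: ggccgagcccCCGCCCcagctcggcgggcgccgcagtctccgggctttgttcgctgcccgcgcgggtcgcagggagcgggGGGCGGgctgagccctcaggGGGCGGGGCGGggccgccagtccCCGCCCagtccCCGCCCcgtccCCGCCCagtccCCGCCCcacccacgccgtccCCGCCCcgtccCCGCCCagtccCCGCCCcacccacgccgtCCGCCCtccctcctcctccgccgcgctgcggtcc
The 191 bases of Lamb1 held 2 GC boxes and 1 CCAAT, the 199 bases of Nid1 held 1 of each, and the 250 bases of Agrn held 12 GC boxes and no CCAAT. The search on either strand for TATAA found none in the 3 windows. Stretches of the same place and length among all 32851 promoters of the table held a GC box in 23.1%, 24.4% and 32.7% of cases at the Lamb1, Nid1 and Agrn lengths, CCAAT in 26.9%, 28.2% and 33.8%, and TATAA in 17.3%, 17.8% and 22.8%. A match describes the letters only.

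The members fell into a small abundant group and a long tail. Averaged over the libraries of each of the 24 combinations of stage and region, 12 members reached 10 FPKM in at least 1 combination, 29 reached 1 FPKM and 32 stayed under 1 FPKM in all of them, while none was at 0 in every library. Without the E6.0 library named above, 10 members reached 10 FPKM, 19 reached 1 FPKM and 42 did not, so that 10 members passed 1 FPKM through that library alone. The highest regional means belonged to Sparc (290 FPKM, EP at E7.0), Col4a1 (93.1 FPKM, EP at E7.0), Fn1 (74.9 FPKM), Lamb1 (46.8 FPKM), Col4a2 (40.7 FPKM), Lamc1 (32.8 FPKM), Nid1 (29.3 FPKM) and Lama1 (28.6 FPKM). Next came Col18a1 (17.7 FPKM), whose product is a heparan sulphate-bearing collagen of basement membranes, Agrn (14.1 FPKM), the membrane-spanning collagen gene Col23a1 (9.85 FPKM), Nid2 (8.55 FPKM) and Lama5 (4.50 FPKM). Hspg2 was low throughout, at 0.237 to 0.869 FPKM in the stage means of epiblast, mesoderm and endoderm.

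The head-to-head pair Col4a1 (chr8:11198423-11312826, minus strand) and Col4a2 (chr8:11312805-11449287, plus strand) shares 22 bases of first exon at chr8:11312805-11312826 (GRCm38, GENCODE vM21), and the libraries are unstranded, so fragments from that overlap cannot be assigned to either gene. The other laminin and nidogen genes lie apart, Lama1 at chr17:67697259-67822647, Lamb1 at chr12:31265234-31329644, Lamc1 at chr1:153218922-153332786, Nid1 at chr13:13437551-13512269 and Nid2 at chr14:19751265-19811787. Fn1 lies at chr1:71585520-71653200, Sparc at chr11:55394500-55423183 and Agrn at chr4:156165290-156197488.

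Sparc averaged 84.7 ± 53.6 FPKM in early gastrula endoderm, 268 ± 70.2 FPKM in that of the mid gastrula and 175 ± 44.3 FPKM in that of the late gastrula (SD over 2 embryos each), against 29.3 ± 8.97, 17.5 ± 8.23 and 35.4 ± 23.8 FPKM in epiblast of the same stages (SD over 6, 2 and 6 embryos). Col4a1 was at 30.4 ± 22.3, 88.3 ± 0.408 and 69.5 ± 5.99 FPKM in endoderm of those stages, and at 2.26 ± 0.933, 3.08 ± 2.04 and 4.79 ± 1.36 FPKM in epiblast. Fn1 was highest in mesoderm, with 59.1 ± 34.2 FPKM in mid gastrulas and 60.9 ± 29.3 FPKM in late ones, and stood at 16.6 ± 14.4 and 20.5 ± 1.92 FPKM in their endoderm and 19.3 ± 11.7 and 13.4 ± 10.5 FPKM in their epiblast. The spread between embryos was often wide, but narrow for Col4a1 in endoderm at E7.0 and E7.5 and for Fn1 in endoderm at E7.5. Endoderm and epiblast of Fn1 overlapped at E7.0. Across the 3 stages with endoderm, Col18a1 was at 3.08, 5.85 and 7.3 FPKM in endoderm and 14.1, 4.85 and 12.2 FPKM in epiblast. These epiblast means pool A and P libraries in unequal numbers, 7 of A and 22 of P at E7.0. At E7.5 A came from 6 embryos and P from 4. In matched sections of E7.0 the order was reversed for both genes. Col18a1 was at 5.39 FPKM in endoderm and 7.30 FPKM in epiblast, and Fn1 at 16.9 and 14.4 FPKM. The order of the members was thus Sparc, Col4a1, Lamb1, Col4a2 in endoderm at E7.0, the last 2 within their spread (41.5 ± 6.63 and 37.2 ± 4.68 FPKM), and Fn1 stood above Sparc in mesoderm.

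Endoderm was compared with epiblast of the same sections in 6 embryos, embryos 5 and 6 at E6.5, embryos 1 and 2 at E7.0 and embryos 5 and 6 at E7.5. Endoderm was the mean of EA and EP and epiblast the mean of A and P; differences are of log2(FPKM + 1), so those of low genes are understated, and each test is limma's moderated test across all genes tested with Benjamini-Hochberg adjustment at 0.05. Genes of the laminin trimer of alpha-1, beta-1 and gamma-1 chains, of both major type IV collagen chains, and of nidogen-1 and Sparc were each higher in endoderm in 6 of 6 embryos.

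Col4a1 was at 14.6, 46.2, 92.8, 96.2, 63.8 and 83.0 FPKM in endoderm of the 6 embryos in that order, against 0.867, 2.35, 1.72, 4.28, 2.40 and 3.82 FPKM in their epiblast. Every endoderm value lay above every epiblast value. The mean difference was 3.87 ± 0.17 (SE, log2; adjusted p = 8.9e-15, limma). Col4a2, the partner chain, had 7.52, 20.2, 40.8, 42.9, 25.4 and 29.9 FPKM in endoderm, against 0.22 to 1.30 FPKM in epiblast, a difference of 3.65 ± 0.17 (adjusted p = 3.3e-14).

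Lama1 was at 3.44, 9.49, 34.1, 23.1, 17.8 and 23.2 FPKM in endoderm, against 0.0484, 0.0708, 0.0114, 0.144, 0.356 and 0.101 FPKM in epiblast. In epiblast this alpha chain was close to undetected, and the difference was 3.21 ± 0.17 (adjusted p = 6.1e-13). Lamb1 stood at 9.08, 23.7, 50.5, 43.0, 27.8 and 37.7 FPKM in endoderm, against 2.19, 5.35, 3.01, 9.54, 6.11 and 13.2 FPKM in epiblast (2.03 ± 0.19, adjusted p = 1.3e-08). Lamc1 stood at 4.04 to 35.0 FPKM in endoderm, against 1.08 to 3.24 FPKM in epiblast (2.31 ± 0.17, adjusted p = 1.3e-10). Unlike Lama1, both of these chains had more than 1 FPKM in the epiblast of every embryo. Lama5, the alpha chain of the laminins known from most later epithelia, differed little, with 2.63, 4.95, 3.16, 5.504, 1.73 and 2.76 FPKM in endoderm, against 1.51, 3.70, 0.767, 2.63, 0.80 and 1.67 FPKM in epiblast (0.54 ± 0.15, adjusted p = 0.0034).

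The nidogens parted. Nid1 was at 3.74, 9.38, 31.0, 29.8, 20.4 and 27.7 FPKM in endoderm, against 0.0526 to 0.659 FPKM in epiblast, a difference of 3.35 ± 0.17 (adjusted p = 1.7e-13). Nid2 was at 1.03, 3.83, 6.19, 7.91, 6.83 and 8.46 FPKM in endoderm, against 1.86, 3.92, 2.95, 4.56, 5.45 and 4.64 FPKM in epiblast. Its groups overlapped, and the difference of 0.24 ± 0.15 did not pass (adjusted p = 0.17). Agrn was at 3.87, 9.89, 8.97, 16.4, 12.5 and 14.4 FPKM in endoderm, against 1.79 to 6.00 FPKM in epiblast (1.01 ± 0.15, adjusted p = 5.3e-06).

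Sparc was at 46.8, 123, 325, 238, 199 and 163 FPKM in endoderm, against 14.1, 31.3, 17.1, 26.9, 15.4 and 24.7 FPKM in epiblast, without overlap (2.84 ± 0.17, adjusted p = 1.5e-11). Col23a1 was higher as well, with 1.12 to 6.14 FPKM in endoderm and 0.159 to 0.55 FPKM in epiblast (1.29 ± 0.16, adjusted p = 4.6e-07). Col18a1 was the only tested member that was lower, with 0.865, 5.29, 4.17, 6.62, 8.19 and 6.12 FPKM in endoderm, against 4.94, 14.0, 3.80, 10.8, 4.53 and 10.0 FPKM in epiblast. In 5 of 6 embryos its section-by-section difference was below 0, at a mean of −0.68 ± 0.17 (adjusted p = 0.0014); the call was lost when endoderm was set against P alone (adjusted p = 0.064).

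Of the 15 members that passed the filter on low values, 10 were higher and 1 lower in endoderm, where 10.6% of the 10332 genes tested were higher and 58.2% lower. The members' median difference was 1.29, against −0.47 for all genes tested. Lama1, Nid1, Col23a1, Col4a2 and Col2a1 had epiblast means under 1 FPKM and passed the filter through their endoderm, so for these 5 the count supports nothing. The members' median is the value of Col23a1, 1 of these 5, and supports nothing either. Fn1 and the collagen genes Col2a1 and Col9a3 did not pass the test on average (0.27, 0.05 and −0.14), and the other 46 members, Hspg2 among them, were too low to be tested.

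**Figure D1:**
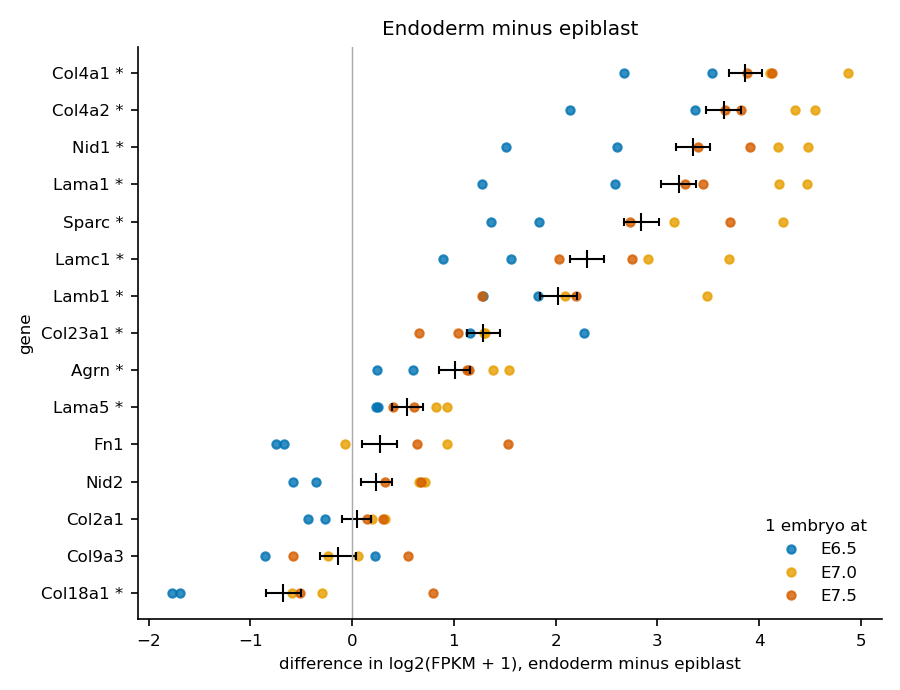
Difference of endoderm minus epiblast in log2(FPKM + 1) for each tested member (rows) and each of 6 embryos (points, coloured by stage), with the mean and its SE in black and an asterisk at adjusted p under 0.05. Points of Col4a1, Col4a2, Nid1, Lama1 and Sparc all lie far to the right of 0, and those of Col18a1 mostly to its left.

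Markers of other tissues moved with this contrast. All 7 genes of the parietal endoderm list were higher in endoderm, with a summed level of 47.9 to 360 FPKM, against 1.19 to 5.01 FPKM in epiblast. Trophoblast genes (3 of 5 tested were higher) summed to 132 to 1286 FPKM in endoderm and 2.17 to 30.5 FPKM in epiblast, and genes of decidua and blood (6 of 6 higher) to 183 to 10908 FPKM and 47.8 to 312 FPKM. The defining markers of the endoderm itself were present, with 11 of 12 visceral endoderm genes higher (sum 4284 to 21235 FPKM, against 30.1 to 178 FPKM in epiblast) and 10 of 10 epiblast genes lower. The part of these other tissues in the members' differences was not tested. With the more distal sections left out, an alternative chosen after seeing the data, 11 members were higher and 1 lower in endoderm. That count does not measure the part of these other tissues.

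By stage, the place of fibronectin depended on the side of the epiblast it was set against. Fn1 was lower in endoderm at E6.5, with 1.65 and 5.06 FPKM, against 2.40 and 5.87 FPKM in epiblast (−0.71, adjusted p = 0.041, limma). At E7.0 its difference was 0.43, and at E7.5 it was higher, with 18.6 and 21.0 FPKM in endoderm, against 7.85 and 23.0 FPKM in epiblast (1.09, adjusted p = 0.012). The difference averages the logs of A and P, so embryo 6 of E7.5 had a difference of 0.64 at similar mean FPKM. Set against P alone, Fn1 was lower in endoderm on average (−0.67, adjusted p = 0.0024) and at −0.32 at E7.5 (adjusted p = 0.36), with 20.5 ± 1.92 FPKM in endoderm, against 30.1 ± 19.9 FPKM in P (SD over 2 embryos). Col18a1 was lower in E6.5 endoderm (−1.73, adjusted p = 3.1e-05) and at 0.15 at E7.5 (adjusted p = 0.78).

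The change of the endoderm minus epiblast difference, E7.5 against E6.5, passed upwards for 7 of 15 members and downwards for none, where 36.7% of the genes tested went up and 0.319% down. The median change was 0.96 for the members and 0.78 for all genes. The part of a shift of the whole table in the members' change was not tested. Col18a1 (1.87 ± 0.42, adjusted p = 0.0021), Fn1 (1.80 ± 0.42, adjusted p = 0.0028), Sparc (1.63), Nid1 (1.60), Lama1 (1.43), Lamc1 (1.16) and Nid2 (0.96, adjusted p = 0.048) passed, and Col4a1 (0.91, adjusted p = 0.080) and Col4a2 (0.98, adjusted p = 0.065) did not. With every library scaled to the same sum none of the 7 passed, Fn1 having an adjusted p of 0.085, and without embryo 5 of E7.5 only 1 member was called. Set against P alone, of these 7 only Col18a1 passed (2.09, adjusted p = 0.0024, limma), and Col23a1 passed downwards (−1.26, adjusted p = 0.031). Fn1 (0.61, adjusted p = 0.28) and Nid2 (0.23, adjusted p = 0.61) did not. Nor did Sparc (1.44), Nid1 (1.04), Lama1 (1.03) and Lamc1 (0.86). The decidua and blood sum in endoderm was 2737 to 10908 FPKM at E7.5 and 183 to 335 FPKM at E6.5, and its part in these changes was not tested.

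Along the endoderm, from the most distal to the most proximal section, the members split into opposed sets. Genes of the laminin alpha-1, beta-1 and gamma-1 chains, nidogen-1 and type IV collagen were higher distally, and Nid2, Agrn and Col18a1 were higher proximally. In the most proximal endoderm section the 6 embryos had 0.17, 2.57, 0.33, 3.19, 2.75 and 1.82 FPKM of Lama1, against 5.45, 30.43, 31.23, 24.83, 8.83 and 17.23 FPKM in the most distal. Nid1 had 0.58, 3.72, 1.53, 7.63, 6.13 and 0.97 FPKM proximally, against 10.81, 27.06, 27.31, 32.27, 11.55 and 28.87 FPKM distally. Every distal value of both genes lay above every proximal value. The fitted change over the length of the endoderm was −2.98 ± 0.45 for Lama1 (adjusted p = 2.1e-09, limma) and −2.63 ± 0.46 for Nid1 (adjusted p = 3.5e-07), both below 0 in 6 of 6 embryos.

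Lamc1 changed by −2.21 ± 0.46 (adjusted p = 3.6e-05) and Lamb1 by −1.96 ± 0.47 (adjusted p = 0.00035). Col4a1 was at 7.01, 41.8, 20.0, 44.9, 26.3 and 31.3 FPKM in the proximal section and 17.5, 104.5, 113.4, 95.2, 32.2 and 96.8 FPKM in the distal one, so that it remained abundant at both ends. Its slope of −1.25 ± 0.47 (adjusted p = 0.040) was lost with a pseudocount of 0.1 (adjusted p = 0.086), with equal sums (0.067) and without any of 4 of the embryos, while Col4a2 had −1.41 ± 0.47 (adjusted p = 0.017). Sparc did not pass (−1.14, adjusted p = 0.070), although it too was below 0 in 6 of 6 embryos.

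Agrn was at 5.40, 14.7, 12.5, 26.5, 14.0 and 21.3 FPKM in the proximal section and 1.05, 6.38, 3.18, 9.04, 4.48 and 8.16 FPKM in the distal one, a rise in every embryo (1.45 ± 0.45, adjusted p = 0.011). Nid2 was at 1.32, 9.74, 5.48, 17.8, 8.62 and 9.71 FPKM in the proximal section, against 1.26, 1.32, 0.30, 5.80, 2.34 and 3.78 FPKM distally (1.68 ± 0.41, adjusted p = 0.00055), and Col18a1 changed by 1.55 ± 0.40 (adjusted p = 0.0013). Fn1 (1.00, adjusted p = 0.10) and Lama5 (0.46, adjusted p = 0.41) did not pass. Of 16 members tested 3 were higher proximally and 6 distally, where 17.7% of the 10147 genes tested were higher proximally and 3.23% distally, and the median of all genes was 0.36. The calls depended on single embryos: without embryo 1 of E7.0 or without embryo 5 of E7.5 5 members passed, without embryo 6 of E7.5 only 3, and without a filter on low values 3. Lama1, Nid1 and Lamc1 passed in each of these.

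**Figure D2:**
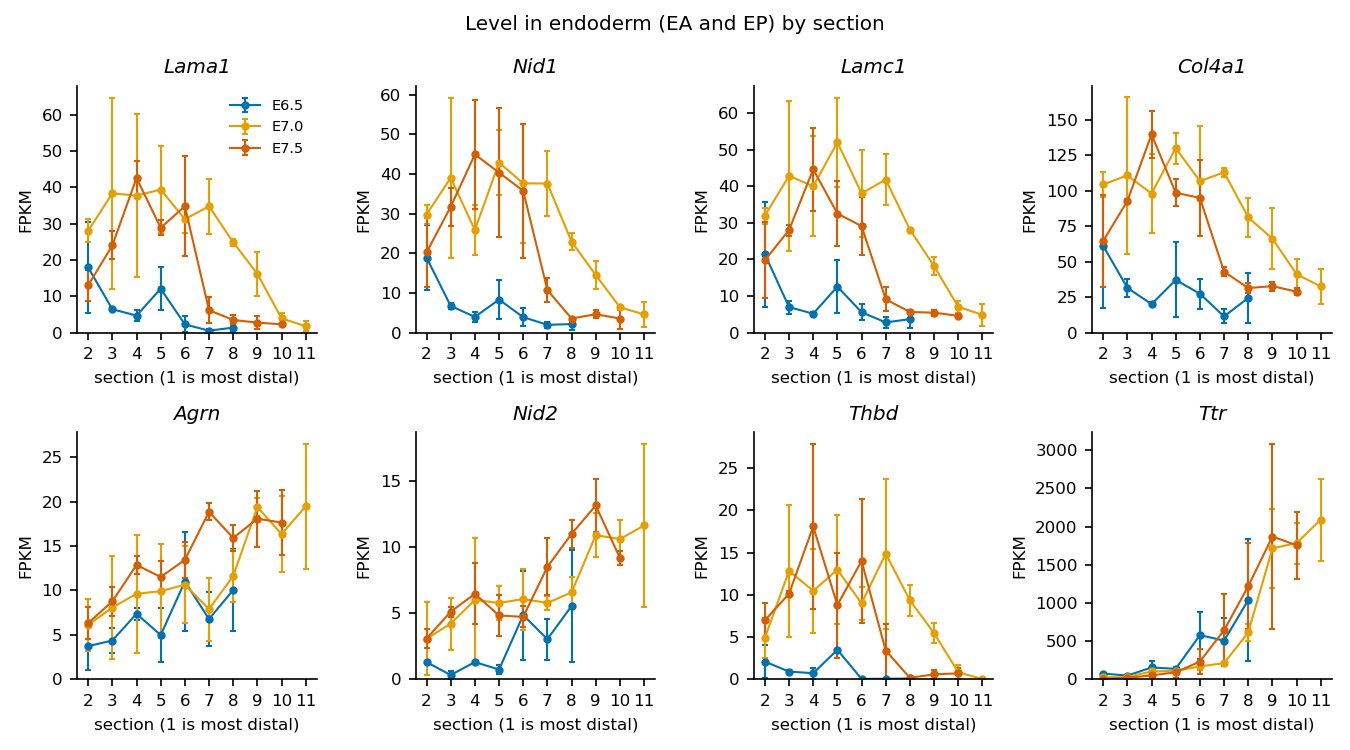
FPKM in endoderm by section number, with section numbers rising from distal to proximal, for 6 members and the markers Thbd (parietal endoderm) and Ttr (visceral endoderm). Points are means of the 2 embryos of each stage and bars run from the lower to the higher embryo; Lama1, Nid1 and Lamc1 decline towards the proximal end together with Thbd, and Agrn and Nid2 climb.

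Markers divided along the same axis. Visceral endoderm genes were higher proximally (12 of 12), Ttr with 236, 1836, 1554, 2627, 1314 and 2195 FPKM in the proximal section, against 65.8, 78.9, 23.6, 19.3, 2.70 and 2.51 FPKM in the distal one. Of 7 parietal endoderm genes 4 were higher distally, Thbd with 0 to 1.31 FPKM in the proximal section and 0.13, 4.02, 7.23, 2.55, 4.87 and 9.08 FPKM in the distal one, and all 6 decidua and blood genes were higher distally too. Over 104 EA and EP libraries the correlation (Pearson's r of log2(FPKM + 1), with embryo and depth shared between points and markers chosen after their values were seen) was 0.877 between Lama1 and Thbd, 0.884 between Nid1 and Thbd and 0.753 between Col4a1 and Thbd. Agrn and Nid2 had −0.152 and −0.012 with Thbd, and Agrn had 0.548 with Ttr. The part of parietal endoderm cells or RNA in the distal values was not tested.

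Within the endoderm, EP was compared with EA of the same sections in the same 6 embryos. Fn1 was at 2.78, 8.48, 8.36, 37.0, 22.9 and 25.9 FPKM in EP, against 0.528, 1.64, 4.64, 16.6, 15.4 and 17.9 FPKM in EA, higher in 6 of 6 embryos (0.92 ± 0.17, adjusted p = 0.018, limma). Col2a1, the chain of cartilage and notochord collagen, was at 0.0714, 0.146, 0.156, 0.459, 0.527 and 0.0728 FPKM in EP, against 0.0913, 1.54, 1.30, 3.09, 2.89 and 1.16 FPKM in EA (−0.80 ± 0.14, adjusted p = 0.018). Col2a1 was under 1 FPKM in EP of every embryo and passed the filter through EA, so its call supports nothing. These were 1 higher and 1 lower of 16 tested, where 0.887% of genes were higher and 0.611% lower; over all genes that was 90 higher and 62 lower, and 37 and 47 with equal sums. None of the laminin, nidogen or type IV collagen genes passed. Without embryo 2 of E7.0 or embryo 5 of E7.5 no member was called, and without embryo 1 of E7.0 or embryo 6 of E7.5 only 1 was. Mesoderm genes moved the same way as Fn1 (6 of 10 higher, sum 8.62 to 293 FPKM in EP and 4.18 to 49.6 FPKM in EA), and their part was not tested.

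Visceral endoderm was dissected under its own code at E6.0, and 3 sections of embryo 2 allowed a comparison with epiblast that has no replicate and no test. Col4a1 was at 38.6 FPKM in VE and 2.90 FPKM in epiblast, Col4a2 at 17.6 and 0.29 FPKM, Lama1 at 9.34 and 0.136 FPKM, Nid1 at 9.31 and 0.765 FPKM, and Sparc at 125 and 27.3 FPKM. Col23a1 stood at 7.61 FPKM in VE and 0.365 FPKM in epiblast. Differences in log2(FPKM + 1) were −3.15 for Col18a1, −1.60 for Nid2, −0.66 for Fn1 and −0.18 for Agrn, that is lower in VE. The same VE sections held 114 FPKM of Ttr and 290 FPKM of Apoa1, against 8.02 and 15.5 FPKM in epiblast, and also 614 FPKM of Prl3d1, against 3.30 FPKM.

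Mesoderm was compared with P of the same sections in 4 embryos, embryos 1 and 2 of E7.0 (M) and embryos 5 and 6 of E7.5 (the mean of MA and MP). Fibronectin, Sparc and type IV collagen genes were higher in mesoderm, and Lamb1, Nid2, Lama5 and Col18a1 were lower. Fn1 was at 34.9, 83.3, 40.2 and 81.6 FPKM in mesoderm, against 14.4, 38.3, 16.0 and 44.2 FPKM in P, higher within each embryo although the ranges overlapped (1.13 ± 0.11, adjusted p = 0.0011, limma). Sparc was at 15.0, 34.9, 29.1 and 51.9 FPKM in mesoderm, against 7.79, 18.2, 12.2 and 18.6 FPKM in P (0.92 ± 0.09, adjusted p = 0.0012). No embryo went against either direction.

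Col4a1 was at 5.00, 12.6, 6.13 and 11.3 FPKM in mesoderm, against 1.67, 4.58, 3.63 and 3.86 FPKM in P (1.03 ± 0.12, adjusted p = 0.0018), and Col4a2 differed by 1.02 ± 0.12 (adjusted p = 0.0020). Lama1 was low in both, at 0.559, 1.502, 2.20 and 1.99 FPKM in mesoderm and 0.024, 0.228, 0.44 and 0.312 FPKM in P (0.91 ± 0.12, adjusted p = 0.0027). Col23a1 was higher by 1.22 ± 0.14 (adjusted p = 0.0019).

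Lamb1 was at 3.36, 7.76, 5.22 and 8.69 FPKM in mesoderm, against 3.96, 12.9, 11.4 and 21.2 FPKM in P, lower within every embryo (−0.82 ± 0.11, adjusted p = 0.0028). Nid2 was at 1.78, 3.28, 3.18 and 3.18 FPKM in mesoderm, against 2.20, 7.30, 8.36 and 6.78 FPKM in P (−0.82 ± 0.14, adjusted p = 0.0055), and Lama5 at 0.33 to 0.867 FPKM, against 0.846 to 1.95 FPKM (−0.60 ± 0.12, adjusted p = 0.0087). Col18a1 was at 0.84, 2.26, 2.03 and 1.92 FPKM in mesoderm, against 2.00, 5.61, 3.68 and 5.66 FPKM in P (−0.93 ± 0.13, adjusted p = 0.0034). Lamc1 passed narrowly (−0.31 ± 0.10, adjusted p = 0.039) and did not pass under either rescaling or without any single embryo. Nid1 (0.39, adjusted p = 0.068), Agrn (−0.21, adjusted p = 0.11), Col13a1 (0.38, adjusted p = 0.11) and Col9a3 (−0.32, adjusted p = 0.15) did not pass.

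Of 15 members tested, 6 were higher and 5 lower in mesoderm than in P, where 3.97% of the 9828 genes tested were higher and 39.8% lower. Over all genes the median was −0.24, and the split of 390 higher to 3909 lower became 413 to 1479 with equal sums and 416 to 1070 with equal medians. The members' median was 0.38. Lama1, Col23a1 and Nid1 averaged under 1 FPKM in P and passed the filter through mesoderm, Nid1 through that of E7.5 (1.29 FPKM). Lama5 and Col9a3 averaged under 1 FPKM in mesoderm and passed through P. For these members the count, the median and the adjusted p support nothing. Parietal endoderm genes were higher in mesoderm as well (5 of 5, sum 18.4 to 25.1 FPKM, against 3.61 to 5.40 FPKM in P), and so were 4 of 10 visceral endoderm genes (sum 198 to 1378 FPKM, against 71.96 to 354 FPKM). Their part in the collagen IV, Lama1 and Sparc values was not tested. In MA and MP of the E7.5 embryos Pth1r was at 5.49 to 9.13 FPKM, Gata6 at 3.36 to 9.39 FPKM and Stra6 at 2.24 to 9.63 FPKM. Srgn was at 0.671 to 6.43 FPKM, Plat at 0.175 to 4.85 FPKM and Thbd at 0.0256 to 1.86 FPKM. Only 2 members passed when embryos were not paired.

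Set against endoderm of the same sections in those 4 embryos, mesoderm was lower for the basement membrane genes. Fn1 was higher, at 34.9, 83.3, 40.2 and 81.6 FPKM in mesoderm, against 6.497, 26.8, 19.2 and 21.9 FPKM in endoderm, without overlap (1.67 ± 0.17, adjusted p = 8.0e-04, limma). Col13a1, a membrane-spanning collagen gene, was higher too, at 0.917, 2.49, 2.15 and 2.78 FPKM in mesoderm and 0.327, 0.642, 0.178 and 0.438 FPKM in endoderm (1.10 ± 0.13, adjusted p = 0.0015). The lower members were Nid1 (−3.16, adjusted p = 9.8e-05), Col4a1 (−2.91), Lamc1 (−2.87), Sparc (−2.76, adjusted p = 0.0010), Col4a2 (−2.68), Lama1 (−2.46), Lamb1 (−2.05), Agrn (−1.57), Col18a1 (−1.31), Lama5 (−1.27), Nid2 (−0.97, adjusted p = 0.0016) and Col9a3 (−0.51, adjusted p = 0.020). Col23a1 did not pass (0.53, adjusted p = 0.051). That was 2 higher and 12 lower of 15 tested, where 24.9% of the 9910 genes tested were higher and 14.5% lower, with a median of −1.57 for the members and 0.17 for all genes. Col13a1 averaged under 1 FPKM in endoderm, and Nid1, Lama5 and Col9a3 did in mesoderm. Each passed the filter through its higher side, so for these 4 the count, the median and the adjusted p support nothing. The comparison shares its mesoderm libraries with the previous one. The parietal endoderm sum was 18.4 to 25.1 FPKM in mesoderm and 119 to 333 FPKM in endoderm, and its part was not tested. With distal sections left out, 1 member was higher and 12 lower, a count that does not measure that part.

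**Figure D3:**
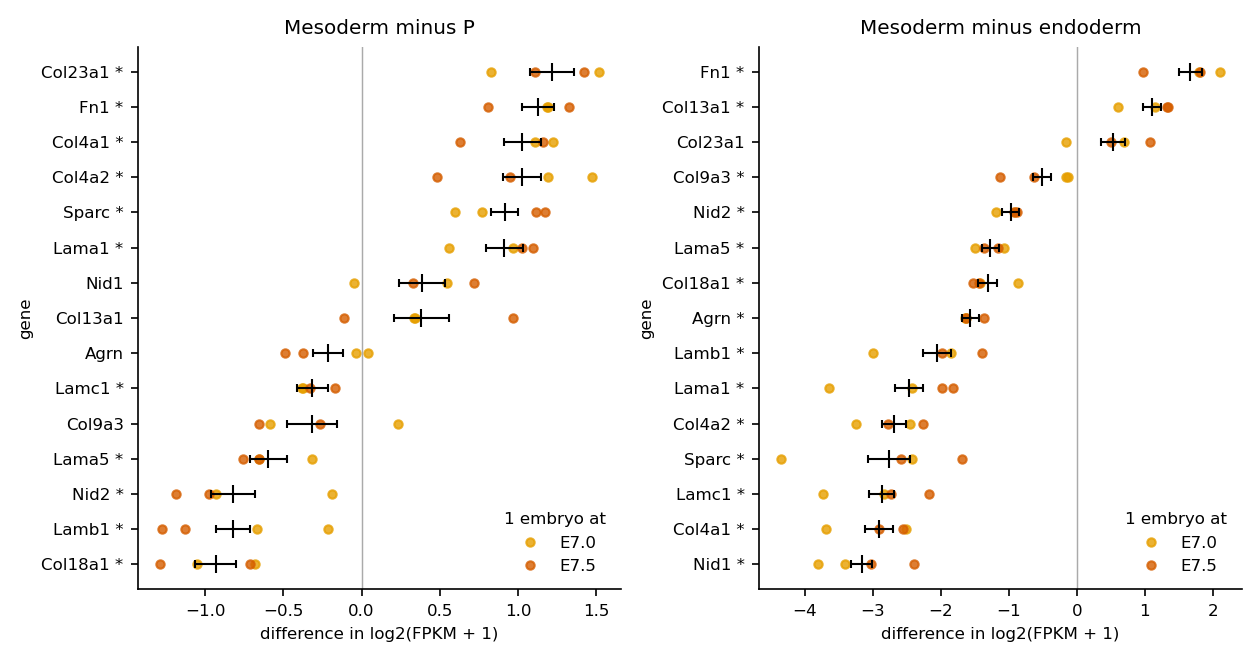
Differences in log2(FPKM + 1) of mesoderm minus P (left panel) and mesoderm minus endoderm (right panel) for the tested members (rows) in each of 4 embryos (points, coloured by stage), with mean and SE in black and an asterisk at adjusted p under 0.05. Fn1 lies to the right of 0 in both panels, and Col4a1, Col4a2, Lama1 and Sparc lie to the right in the left panel and to the left in the right panel.

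Within E7.5 mesoderm, MP was compared with MA in embryos 5 and 6. Lamb1 was at 7.00 and 10.7 FPKM in MP, against 3.45 and 6.68 FPKM in MA (0.76 ± 0.24, adjusted p = 0.042, limma), and Col23a1 was at 2.35 FPKM in MP of both embryos, against 5.24 and 4.27 FPKM in MA (−0.85 ± 0.22, adjusted p = 0.0051). The ranges of both did not overlap. Fn1 was at 53.3 and 96.5 FPKM in MP and 27.0 and 66.6 FPKM in MA and did not pass (0.70, adjusted p = 0.084). These were 1 higher and 1 lower of 14 members tested, where 1.63% of the 9322 genes tested were higher and 1.81% lower. Lamb1 did not pass with a pseudocount of 0.1, nor Col23a1 with equal sums, and with 2 embryos no embryo could be left out. From distal to proximal mesoderm, averaged over E7.0 and E7.5, Sparc passed among 14 members and no other did (2.76 ± 0.44, adjusted p = 0.00020, 4 of 4 embryos), where 3.21% of the 9637 genes tested were higher proximally and 0.612% distally and the median of all genes was 0.44. Without embryo 5 or embryo 6 of E7.5 no member passed, and without embryo 2 of E7.0 5 did, all higher proximally. At E7.5 by itself Sparc (2.76, adjusted p = 0.013) and Col18a1 (1.51 ± 0.40, adjusted p = 0.048) were higher proximally in 2 of 2 embryos and none was higher distally, where 1.35% of genes were higher and 0.322% lower and the median of all genes was 0.35; neither passed with a pseudocount of 0.1, under either rescaling or without either embryo of E7.5, and over all genes the split of 130 to 31 became 0 to 0 with equal sums.

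Posterior and anterior epiblast were compared within sections at each stage, with 20 members tested. At E5.5 and E6.0 (2 embryos each) limma called none at an adjusted p of 0.05; at an unadjusted p under 0.05 there were 2 at E5.5, where 29.6% of all genes were under it, and 11 at E6.0, against 13.3% of genes. Without the E6.0 library that stood apart, 14 members passed the filter and none of them was under that p at E6.0. Without embryo 2 of E6.0, which leaves the embryo whose section 5 library stood apart, 13 members were called higher in P at that stage. At E6.5 (6 embryos) limma again called none, with 3 under an unadjusted 0.05 (5.03% of all genes were), where 0.586% of the 11438 genes tested were higher and 0.14% lower in P. Fn1 was at 4.13, 7.92, 5.81, 5.31, 2.94 and 7.36 FPKM in P of the 6 embryos, against 3.10, 5.33, 2.82, 3.22, 1.86 and 4.38 FPKM in A. It was higher in P in 6 of 6 embryos, but the difference of 0.43 did not pass (adjusted p = 0.83).

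At E7.0 (embryos 1 and 2) Fn1 was at 17.6 and 28.1 FPKM in P, against 2.77 and 4.54 FPKM in A (1.96 ± 0.32, adjusted p = 0.0018, limma). Sparc was at 7.47 and 16.7 FPKM in P, against 26.7 and 36.9 FPKM in A (−1.43 ± 0.30, adjusted p = 0.012), and Col18a1 at 2.62 and 4.57 FPKM, against 4.97 and 12.5 FPKM (−0.93 ± 0.24, adjusted p = 0.039). All 3 were separate between P and A. Together they were 1 higher and 2 lower of the members tested, where 1.63% of genes were higher and 1.29% lower. Without embryo 2 no member passed, and without embryo 1 only 1 did.

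At E7.5 (embryos 3 to 6, which had 10, 3, 3 and 3 sections with both regions) more members differed. Fn1 was at 16.6, 9.50, 13.4 and 42.5 FPKM in P, against 4.29, 1.63, 2.31 and 3.47 FPKM in A (2.32 ± 0.23, adjusted p = 1.2e-06). Lamb1 was at 12.1, 10.9, 9.69 and 21.1 FPKM in P, against 4.42, 4.45, 2.53 and 5.41 FPKM in A (1.57 ± 0.21, adjusted p = 4.2e-05), and Nid2 at 8.43, 3.17, 7.70 and 6.28 FPKM, against 3.00, 1.82, 3.20 and 3.00 FPKM (1.01 ± 0.16, adjusted p = 0.00027). P lay above A without overlap for Fn1 and Lamb1, and the lowest P value of Nid2 fell just below its highest A value.

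Col18a1 and Sparc ran the other way at E7.5. Col18a1 was at 6.16, 2.54, 2.98 and 5.25 FPKM in P, against 16.7, 5.47, 6.08 and 14.8 FPKM in A (−1.01 ± 0.17, adjusted p = 0.00043), and Sparc at 17.6, 13.9, 9.57 and 15.8 FPKM, against 39.8, 25.7, 21.2 and 33.7 FPKM (−0.92 ± 0.21, adjusted p = 0.0076). Sparc did not overlap between P and A, while Col18a1 did between embryos. That gave 3 higher and 2 lower, where 10.4% of genes were higher and 3.44% lower and the median of all genes was 0.15 (0.04 for the members). Without the E6.0 library that stood apart 14 members passed the filter, against 20 with it. The members' median therefore includes genes let in by that library alone. Over all genes the split of 1193 higher to 393 lower became 722 to 583 with equal sums, and the same 5 calls held under both rescalings. Primitive streak genes were higher in P (6 of 6, sum 272 to 1131 FPKM, against 4.79 to 44.9 FPKM in A) and so were 8 of 9 mesoderm genes (sum 61.7 to 292 FPKM, against 2.74 to 23.2 FPKM); the part of mesoderm in P libraries was not tested.

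**Figure D4:**
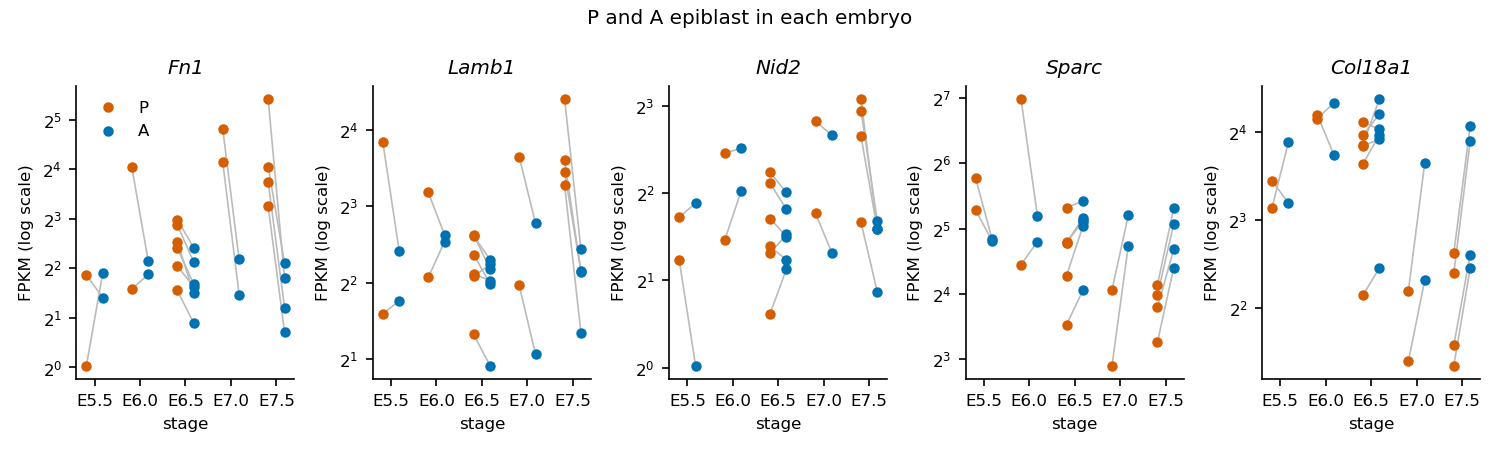
FPKM (log axis) of Fn1, Lamb1, Nid2, Sparc and Col18a1 in P (left of each pair) and A (right) by stage, 1 point per embryo, with grey lines joining P and A of the same embryo. Within embryos P lies above A for Fn1, Lamb1 and Nid2 at E7.5 and below it for Sparc and Col18a1; the high E6.0 P point of Fn1 and of Sparc is embryo 1, whose section 5 library stood apart.

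The P minus A difference itself changed between E6.5 and E7.5 for 4 members. It was larger at E7.5 for Fn1 (1.89 ± 0.29, adjusted p = 0.00059, limma), Lamb1 (1.41 ± 0.27, adjusted p = 0.0037) and Nid2 (0.98 ± 0.21, adjusted p = 0.0084). For Col18a1 it became more negative, at −1.01 at E7.5 against −0.19 at E6.5 (change −0.82 ± 0.22, adjusted p = 0.038, limma). That is 3 higher and 1 lower of 20 (14 members without the E6.0 library that stood apart), where 3.09% of genes were higher and 0.944% lower. Over all genes 353 were higher and 108 lower, and 283 and 172 with equal sums. The call for Col18a1 was lost in 12 of 26 alternatives, and none of the 4 passed without the pairing of P and A by embryo.

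From distal to proximal in P, 28 members were tested, 17 without the E6.0 library that stood apart. At E5.5 Lama1 and Nid2 were higher distally. Lama1 was at 0 FPKM in the most proximal P section of both embryos, against 6.31 and 4.18 FPKM in the most distal one (−2.23 ± 0.41, adjusted p = 0.0020, limma). In P of the embryos with endoderm Lama1 averaged 0.061 FPKM at E6.5, 0.126 FPKM at E7.0 and 0.376 FPKM at E7.5. So far as these means show, Lama1 passed the filter through its distal E5.5 values, so its call supports nothing. Nid2 was at 0 and 2.40 FPKM proximally, against 10.5 and 6.00 FPKM distally (−1.78 ± 0.51, adjusted p = 0.031), a call that was lost without embryo 1. Those were 0 higher and 2 lower, where 7.56% of genes were higher and 3.73% lower; over all genes that was 879 to 434, and 749 to 663 with equal sums, and neither member passed when E5.5 was fitted alone. Both E5.5 tips that stood apart lay outside these slopes. The 6.31 FPKM of Lama1 was the highest of 215 A and P libraries, the E6.0 library that stood apart left out. The part of other tissues in these distal values was not tested. From E6.0 on limma called none at any stage, and at E6.0 0.335% of genes were higher and 0.0602% lower. In the early gastrula Fn1 averaged 10.35 FPKM in section 8, against 3.03 FPKM in section 2. Only embryos 5 and 6 have a section 8, so these means cover different embryos. The slope was above 0 in 6 of 6 embryos, from 0.15 to 2.36, and did not pass (1.47 ± 0.43, adjusted p = 0.10, limma). At E7.0 Fn1 was at 39.3 FPKM in section 11, against 7.48 FPKM in section 1 (2.87 ± 0.75, adjusted p = 0.058), and at E7.5 its slope was 1.34 (adjusted p = 0.18). At an unadjusted p under 0.05 there were 2 members at E6.5, 2 at E7.0 and 5 at E7.5, against 20.8%, 8.77% and 19.3% of all genes. At E6.0 there were 16, and 1 of 17 without the library that stood apart. Of the 11628 genes tested, 1.41% were higher proximally and 0.12% distally at E6.5, while E7.0 had 0.353% and 1.32% and the late stage 0.671% and 0.361%. The medians of all genes were 0.36 at E6.5 and 0.37 at E7.5, and the splits of 164 to 14 and 78 to 42 became 117 to 29 and 42 to 60 with equal medians. Without the E6.0 library that stood apart, which enters through the shared spread, 1 member passed at each of E6.5, E7.0 and E7.5, all higher proximally.

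In A, 17 members were tested. At E5.5 Nid1 was called lower proximally (−1.78 ± 0.51, adjusted p = 0.046, limma), with 0 FPKM in the most proximal section of both embryos, against 0.292 and 8.45 FPKM in the most distal one. The 8.45 FPKM was the highest of the same 215 A and P libraries, and the part of other tissues in it was not tested. The call rested on embryo 2, without which the slope was −0.30 (adjusted p = 0.88), and it was lost as well when any 1 of 10 embryos of other stages was left out. It was 1 lower and 0 higher, where 2.77% of genes were lower and 5.2% higher; over all genes 623 were higher and 332 lower, and 823 and 985 with equal sums. At E6.5 limma called none, and none had an unadjusted p under 0.05, where 0.0418% of the 11972 genes tested were higher proximally and 0% distally. At E7.5, in the 3 embryos with enough sections, Col9a3 (2.13 ± 0.41, adjusted p = 0.0041), Sparc (1.67 ± 0.41, adjusted p = 0.027) and Col18a1 (1.75 ± 0.45, adjusted p = 0.036) were higher proximally and none distally, where 1.27% of genes were higher and 3.07% lower and the median of all genes was 0.21. None of the 3 passed with a pseudocount of 0.1, with equal sums or without embryo 1, and over all genes the split of 152 to 368 became 81 to 359 with equal sums.

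Chains that assemble together were also compared library by library, as a description over libraries that share embryos and depth. Over all 473 libraries r was 0.937 for Col4a1 with Col4a2, 0.823 for Lamb1 with Lamc1 and 0.822 for Lama1 with Lamc1. Within the 104 endoderm libraries these were 0.942, 0.963 and 0.947, and within 216 A and P libraries 0.667, 0.399 and 0.223. Sparc with Col4a1 gave 0.927 in endoderm and 0.447 in epiblast. Lama5 followed Lamc1 less (0.297 over all and −0.035 in endoderm), and the nidogen pair gave 0.212 over all and 0.062 in endoderm. Fn1 with Col4a1 gave 0.209 over all and 0.641 within the 56 mesoderm libraries. The chains of the other type IV collagens were too low to compare: no library held both Col4a3 and Col4a4 at 1 FPKM, and 4 held both Col4a5 and Col4a6.

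Genes that fold, cross-link, bind or cut matrix were taken from separate lists, and their counts stand beside the shares over all genes given above for each comparison. In endoderm against epiblast, where 10.6% of genes were higher and 58.2% lower, 10 of 17 collagen folding and modifying genes were higher and 2 lower, among them the collagen chaperone gene Serpinh1 (2.07 ± 0.16, adjusted p = 4.8e-10, limma) and the prolyl hydroxylase genes P4ha2 (1.93) and P4ha1 (1.77), with Fkbp10 (−1.02) and Ppib (−0.70) lower. Of 13 receptor genes 2 were higher, Dag1 (0.97, dystroglycan) and Itga5 (0.72, a fibronectin receptor chain), and 7 lower, among them the syndecan genes Sdc2 (−1.33) and Sdc1 (−1.16), shares near those over all genes. Among other glycoprotein genes 4 of 5 were higher, such as Tinagl1 (3.17) and Egflam (1.01), and of 15 protease and inhibitor genes 5 were higher (Reck 0.75, Mmp9 0.71) and 4 lower (Serpine2 −1.54, Mmp2 −1.47). Neither of 2 cross-linking genes passed.

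Along the endoderm, where 17.7% of genes were higher proximally and 3.23% distally, 2 of 18 folding genes were higher proximally (Ppib 1.83, Mia2 1.15) and 5 distally (P4ha2 −2.98, Plod2 −1.82, Serpinh1 −1.65). Of 13 receptor genes 3 were higher proximally, with Sdc4 at 3.00, and 3 distally, with the laminin receptor chain gene Itga6 at −1.16. Of 16 protease and inhibitor genes 1 was higher proximally (Reck, 1.90) and 6 distally (Timp1, −2.24). Other glycoprotein genes gave 2 proximally (Smoc1, 1.70) and 1 distally (Tinagl1, −1.28) of 6, and cross-linking genes 1 of 3 proximally, Tgm2.

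In mesoderm against P, where 3.97% of genes were higher and 39.8% lower, 3 of 17 folding genes were higher (Leprel1, 1.24) and 4 lower (Fkbp10, −0.54), 5 of 11 receptor genes were lower (Ddr1, −1.20, Bcam, −0.95, and Sdc1, −0.61) and none higher, a share near that over all genes, and of 13 protease and inhibitor genes Adam19 was higher (0.63) and 4 were lower (Timp3, −0.62). Tgfbi (0.63) and Egflam (0.58) were the 2 of 5 other glycoprotein genes that were higher. In mesoderm against endoderm, where 24.9% of genes were higher and 14.5% lower, 12 of 18 folding genes were lower (P4ha2, −2.09) and 1 higher (Fkbp10, 0.65), and the protease genes Mmp2 (1.22), Mmp14 (0.99) and Adam19 (0.99) were among 5 of 15 that were higher. Receptor genes gave 3 higher (Itgb5, 0.94) and 6 lower (Sdc4, −1.78) of 12, cross-linking 1 lower of 2 (Pxdn, −0.73), and other glycoproteins 1 higher (Tgfbi, 0.49) and 4 lower (Tinagl1, −3.27) of 8.

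In P against A at E7.5, where 10.4% of genes were higher and 3.44% lower, 3 of 17 folding genes were higher (Serpinh1, 1.17) and none lower, 2 of 13 receptor genes were lower (Itga6, −1.56, and Sdc4, −1.46) and none higher, and 4 of 16 protease and inhibitor genes were higher, with Htra1 at 1.79, the collagenase activator gene Mmp14 at 1.76 and Adam19 at 1.26. Of 8 other glycoprotein genes 3 were higher (Fbln1, 1.10) and of 4 cross-linking genes none passed. The same receptor gene Itga6 was lower in P at E7.0 (−1.50), where Itga5 (1.19) and Adam19 (1.96) were higher.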

How the data were processed

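Per the submitters' processing notes, the authors used TopHat2 2.0.8b, Cufflinks 2.1.1 and the genome build mm10; the deposited values are FPKM, in 1 table per embryo. Per the labels' protocols, Nextera XT libraries were made from laser-microdissected groups of cells, so FPKM here follows amplification of little RNA. Columns of the tables were matched to labels by name: 473 of 586 samples had a column, 113 had none, and 111 columns matched no sample and were not used. The heading of 1 table names another stage than the labels of its embryo. That table was assigned by its embryo code and its section and region codes. Depth was only estimated, since FPKM hold no fragment counts, so no interval for counting error is given.

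FPKM were converted to log2(FPKM + 1). Within each embryo, differences between regions of the same section were averaged over sections, or a line was fitted over at least 4 sections; a slope is the fitted log2 change from the most distal to the most proximal section. The embryo values entered limma 3.58.1 in R 4.3.3 with intensity trend and robust variance, over genes whose mean reached 1 FPKM in some stage of the libraries used. P-values were adjusted by Benjamini-Hochberg over all genes tested, at 0.05, and no count model was used. Procedures were tested on simulated data.

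Regions are paired because labels put them in the same embryo. The check of P and A deviations from their group means gave correlations of 0.633 to 0.875 within the 6 embryos of E6.5 and at most 0.55 between embryos, and 0.353 to 0.743 within 4 embryos of E7.5 and at most 0.027 between them.

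The members, gene lists, tests and alternatives were chosen with earlier results of these data known. The text names 12 members throughout (Col4a1, Col4a2, Lama1, Lama5, Lamb1, Lamc1, Nid1, Nid2, Hspg2, Agrn, Sparc and Fn1), up to 8 others per comparison in each direction by smallest p, up to 3 genes of each matrix list in each direction and the 3 marker genes of highest level per list. Thbd, Ttr and the genes given for the libraries that stood apart were chosen after their values were seen. Slopes of P and A at E5.5 and of mesoderm at E7.5 by itself were added as results after their values were seen. The regional codes of E7.5 embryo 4 (E1, E2, M1, M2) entered no test. Alternatives were other pseudocounts, filters, scalings and embryos left out.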

Additional observations from a re-analysis of the deposited data

Results flagged for a closer look

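Of 68 groups of 4 to 10 samples, 14 held a sample far from all others by Dixon's test, which flags about 1 group in 20 by chance. Of the 12 groups of tip libraries at E6.5 9 were flagged, each for embryo 1. Its tip library held 340.0 FPKM of Col4a1, 161.6 FPKM of Col4a2 (0.242 to 2.90 FPKM in the other 5 tips), 141.8 FPKM of Lama1 (0.0135 to 0.462), 169.3 FPKM of Lamb1 (1.55 to 3.74), 119.4 FPKM of Lamc1 (0.742 to 3.47) and 68.97 FPKM of Nid1 (0.129 to 0.644). It also held 10.93 FPKM of Nid2 (1.46 to 4.599), 3.346 FPKM of Hspg2 (0.103 to 1.21) and 1645 FPKM of Sparc (18.8 to 56.1).

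Among P minus A differences and slopes, 5 of 56 groups were flagged. The slope of P at E6.5 was −1.613 for Lama1 in embryo 1 (−0.089 to 0.033 in the others) and −0.422 for Hspg2 in embryo 3 (0.168 to 0.436). At E7.5 embryo 4 had slopes of P of −1.011 for Lamb1 (0.862 to 1.085 in the others) and −0.3986 for Sparc (1.43 to 1.764). The slope of A at E6.5 was −0.8675 for Lama1 in embryo 1 (−0.314 to −0.077). All are log2 changes from the most distal to the most proximal section.

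Differences between regions that themselves changed, E7.5 against E6.5, passed limma's test of that change for 4 members in P minus A, namely Fn1 (1.887), Lamb1 (1.412), Nid2 (0.9773) and Col18a1 (−0.8194). In endoderm minus epiblast they did so for 7, namely Col18a1 (1.874), Sparc (1.625), Nid1 (1.6), Fn1 (1.795), Lama1 (1.43), Lamc1 (1.162) and Nid2 (0.9648), beside a median change of 0.78 for all genes tested. Of these 7 only Col18a1 passed when endoderm was set against P alone.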

How the results depend on the processing

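Of 451 alternative counts of called members, 357 stayed within 1.5 times their main value and 94 did not; of 1281 alternative values of the 77 calls of members, 1076 kept direction and side of the threshold, 205 kept direction but did not pass, and 0 reversed. The cause of a lost call was not tested. Without the replicate block (P and A, or the other regions, not paired by embryo) the calls were 0 for P minus A at E7.0, 2 at E7.5 and 0 for its change, 0 for the change of endoderm minus epiblast, 2 for mesoderm minus P, 0 for EP minus EA and 0 for MP minus MA; Lama5 (adjusted p = 0.19) and Col18a1 (0.16) were then not called in endoderm. For the change of endoderm minus epiblast, there were 2 calls without a filter, 1 with equal sums, 4 with FPKM averaged first, 2 against P alone and 3 with distal sections left out. Without a filter there were 9 calls for P minus A at E7.5, 0 for EP minus EA, 1 for MP minus MA, 1 for the slope of P and 6 for that of A at E7.5, 3 for that of endoderm and 0 for that of mesoderm. A filter at 5 FPKM gave 4 for mesoderm minus P, 1 for EP minus EA, 0 for MP minus MA and 1 for the slope of A at E7.5; a pseudocount of 0.1 gave 1 for P minus A at E5.5, 1 for MP minus MA and 0 for the slope of A at E7.5. Equal sums gave 1 for MP minus MA and 0 for the slope of A at E7.5, equal medians 1 for the slope of P at E7.0, and FPKM averaged first 0 for EP minus EA. Fitted in its stage alone, P minus A at E6.5 gave 2 calls and the slope of P 1, 2 and 2 at E6.5, E7.0 and E7.5. Without the E6.0 library that stood apart (an alternative chosen after seeing the data, like the distal sections left out), the slopes of P gave 1 at E6.5, E7.0 and E7.5. The slope of P at E5.5 (2 calls) gave 1 without a filter, 1 with a filter at 5 FPKM and 0 in its stage alone. That of A at E5.5 (1 call) gave 2 with a pseudocount of 0.1, 3 with equal sums, and 0 without a filter, with a filter at 5 FPKM, with equal medians, without trend and robust variance and in its stage alone. The slope of mesoderm at E7.5 (2 calls) gave 1 with a filter at 5 FPKM, 1 without trend and robust variance, and 0 with a pseudocount of 0.1, without a filter and under either rescaling.

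With 1 embryo left out in turn, calls ranged from 0 to 2 for P minus A at E5.5, 0 to 13 at E6.0, 0 to 0 at E6.5, 0 to 3 at E7.0 and 5 to 6 at E7.5, 3 to 4 for its change, 11 to 12 for endoderm minus epiblast and 1 to 8 for its change, 10 to 11 for mesoderm minus P, 13 to 16 for mesoderm minus endoderm and 0 to 3 for EP minus EA. For slopes they ranged from 1 to 3 for P and 0 to 5 for A at E5.5, 0 to 1 for P at E6.5 and at E7.0, 0 to 2 at E7.5, 0 to 3 for A at E7.5, 3 to 12 for endoderm, 0 to 5 for mesoderm and 0 to 2 for mesoderm at E7.5. Where 1 embryo of a stage remained, it was assumed to vary like the other stages. Members under 1 FPKM on average in every stage of the libraries used were tested only without the filter.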
